A study of Mus musculus with 11 samples.

Results

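S100a4, S100a6, S100a10, S100a11, Anxa1, Anxa2, Lgals1 and Lgals3 encode S100 proteins, annexins and galectins of activated lymphocytes, and their levels were followed in mouse T cells stimulated with dendritic cells from 4 organs. The members were taken as every probe set of the array annotated with a single gene symbol that is 1 of these 8 names. That gave 7 genes on 11 probe sets, of 12393 genes on 22690 probe sets in all. S100a11 was matched only by a probe set that lists several symbols, so no value of it is given. The genes had been chosen with their levels by organ and by replicate number in these same arrays in view, so those levels are a description. Counts of members past a threshold are printed beside the share of all genes for the same reason, and nothing is read from them.

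T cells of the B10.BR mouse strain were cultured for 4 days with dendritic cells of the C57BL/6 strain and their total RNA was hybridised to 11 single-colour arrays. The 2 strains carry different major histocompatibility genes, and in such an alloresponse T cells respond to the foreign histocompatibility molecules of the dendritic cells. The dendritic cells came from liver (n = 3, numbered 2, 3 and 4), from the organ labelled MLN (n = 3, the same numbers), from the organ labelled PLN (n = 3, the same numbers) or from spleen (n = 2, numbered 3 and 4). MLN and PLN customarily stand for mesenteric and peripheral lymph nodes, and the labels do not spell them out. T cells without dendritic cells were not analysed here, the labels name no reference organ, and they give neither the ages of the mice nor whether arrays of 1 organ came from separate cultures or animals.

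S100 proteins are small proteins that act as dimers, most of them bind calcium, and some are also secreted. Annexins bind to membrane phospholipids when calcium rises and help to organise membranes and the actin cytoskeleton, and the S100A10 dimer joins annexin A2 into a stable complex at the plasma membrane. Galectins bind beta-galactoside sugars on glycoproteins and act both inside cells and, after release without a signal peptide, at the surface of T cells, where galectin-1 is known for restraining T cell responses. Several of these genes, S100a4, S100a6, S100a10, Anxa1 and Lgals1 among them, are known to be higher in effector and memory than in naive T cells.

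The promoters of 4 members are shown first, because S100a4 and S100a6 lie close together on chromosome 3 yet had different profiles over the organs, and Anxa1 and Anxa2 are the 2 annexin members. Each is the 250 bases before the gene's start in RefSeq, build GRCm38.p6, written 5′ to 3′ on the gene's strand. Capitals mark 3 motifs searched on both strands: the TATA box (TATAAA), the AP-1 site (TGAGTCA) and the GC box (GGGCGG). The S100a4 window is chr3:90603520-90603769 on the plus strand and that of S100a6 is chr3:90612644-90612893 on the plus strand. The Anxa1 window is chr19:20390672-20390921 on the minus strand and that of Anxa2 is chr9:69453433-69453682 on the plus strand.
S100a4: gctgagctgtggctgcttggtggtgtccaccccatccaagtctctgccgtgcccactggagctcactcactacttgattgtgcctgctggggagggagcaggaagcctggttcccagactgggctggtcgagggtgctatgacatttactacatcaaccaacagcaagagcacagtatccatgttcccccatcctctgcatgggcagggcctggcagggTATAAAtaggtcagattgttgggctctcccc
S100a6: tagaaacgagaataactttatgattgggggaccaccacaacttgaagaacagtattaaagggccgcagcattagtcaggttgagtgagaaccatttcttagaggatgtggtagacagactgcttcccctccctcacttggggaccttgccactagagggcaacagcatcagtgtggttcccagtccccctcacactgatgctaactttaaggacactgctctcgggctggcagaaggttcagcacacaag
Anxa1: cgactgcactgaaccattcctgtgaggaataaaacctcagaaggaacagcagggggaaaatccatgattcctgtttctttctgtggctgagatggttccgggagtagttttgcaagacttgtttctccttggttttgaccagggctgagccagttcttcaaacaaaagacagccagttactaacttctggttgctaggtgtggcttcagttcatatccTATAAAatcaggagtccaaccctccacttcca
Anxa2: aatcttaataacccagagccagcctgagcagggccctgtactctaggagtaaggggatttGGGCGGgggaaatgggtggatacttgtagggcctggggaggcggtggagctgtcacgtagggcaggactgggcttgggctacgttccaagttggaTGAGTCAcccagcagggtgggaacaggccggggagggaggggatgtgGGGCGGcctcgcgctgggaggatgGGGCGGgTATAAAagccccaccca

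The TATA box letters began 31 bases before the start of S100a4, 32 before that of Anxa1 and 17 before that of Anxa2, and 12.4% of all 32851 promoter windows of this length hold them. The AP-1 letters stood in the Anxa2 window, 95 bases before the start, and occur in 4.46% of all windows. GC box letters stood in the Anxa2 window 190, 48 and 24 bases before the start and occur in 32.7% of all windows. None of the 3 motifs was found in the S100a6 window. The windows of S100a11 and Lgals3, not shown here, were searched too, and neither held TATA box letters. That of S100a11 held AP-1 letters 136 and 38 bases before the start and GC box letters 64, 52 and 24 before it. The Lgals3 window held no AP-1 letters, and GC box letters on the opposite strand 7 bases before the start. In the RefSeq order of coding genes, S100a4 lies between S100a2 and S100a5, and S100a6 between S100a5 and S100a7a. S100a5, the gene between the 2 members, had intensities of 103 to 168 over the 11 arrays.

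Of the 3 S100 members measured, S100a4 had the widest differences between organs and S100a6 next to none. S100a10 had smaller differences than S100a4, in the same order on its probe set of highest mean. S100a4, also known as fibroblast-specific protein or metastasin, binds non-muscle myosin and is linked to cell motility. Levels are log2(intensity + 16) after quantile normalization. S100a4 (probe set 1424542_at) had levels of 11.30, 10.85 and 11.94 in the liver cultures numbered 2, 3 and 4. It had 9.71, 9.78 and 10.69 in the MLN cultures of the same numbers. In the PLN cultures it had 10.31, 10.73 and 11.14, and in the spleen cultures numbered 3 and 4 it had 10.27 and 11.39. Every liver array was above every MLN array, while PLN and spleen arrays lay across the gap between them. As intensities, the liver arrays ran from 1830 to 3910 and the MLN arrays from 821 to 1640.

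The S100a4 organ means were 11.36 ± 0.55 in liver, 10.83 ± 0.79 in spleen, 10.73 ± 0.42 in PLN and 10.06 ± 0.55 in MLN cultures (SD, n = 3, 2, 3 and 3). Liver and spleen, and spleen and PLN, differed by less than the SD of the spleen arrays. The step from PLN to MLN was larger than either SD but their arrays overlapped, and within replicate numbers it was 0.60, 0.95 and 0.45. Within replicate numbers 2, 3 and 4, liver exceeded MLN by 1.59, 1.07 and 1.25 (log2), that is by 3.01-fold, 2.10-fold and 2.37-fold. The liver culture was the highest and the MLN culture the lowest in each of the 3 numbers. The places of PLN and spleen changed between numbers: PLN exceeded spleen by 0.45 in number 3 and lay below it by 0.25 (a difference of -0.25) in number 4. Liver also stood highest and MLN lowest in each number with intensities as deposited, where liver exceeded MLN by 1.57, 1.09 and 1.22, and with median centring, where it did so by 1.49, 1.08 and 1.17.

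S100a10, the partner of annexin A2 that also carries ion channels to the plasma membrane, followed the same order over a narrower range on its probe set of highest mean. Its probe set 1416762_at had levels of 13.10, 13 and 13.26 in liver and 12.48, 12.44 and 13.05 in MLN cultures. It had 12.82, 12.79 and 13.05 in PLN and 12.69 and 13.22 in spleen cultures. The MLN culture numbered 4 overlapped the liver range, and the other 2 MLN cultures lay below every array of the other organs. Liver exceeded MLN by 0.62, 0.56 and 0.21 within numbers 2, 3 and 4. The second probe set, 1456642_x_at, gave 0.62, 0.80 and 0.03 for the same differences, so both place the gap in numbers 2 and 3 and little of it in number 4. On 1416762_at the organ means were 13.12 ± 0.13 in liver, 12.95 ± 0.37 in spleen, 12.89 ± 0.15 in PLN and 12.66 ± 0.34 in MLN cultures (SD, n = 3, 2, 3 and 3). No 2 neighbours in that order differed beyond their spread. On 1456642_x_at the order of means was liver (12.92), PLN (12.68), spleen (12.57) and MLN (12.44). In number 4 PLN, not MLN, was lowest on it, while on 1416762_at MLN and PLN both rounded to 13.05.

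S100a6, known as calcyclin and first described as a gene of proliferating cells, had no steady order of organs. Its levels (probe set 1421375_a_at) were 12.57, 12.27 and 12.67 in liver, 12.17, 12.32 and 12.81 in MLN, 12.34, 12.46 and 12.98 in PLN and 12.23 and 12.88 in spleen cultures. All 4 organ ranges overlapped, with means of 12.50 ± 0.21, 12.44 ± 0.34, 12.59 ± 0.34 and 12.55 ± 0.46. Liver was the highest organ in number 2 and the lowest in number 4. The 4 highest values were those of the 4 arrays numbered 4.

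**Figure D1:**
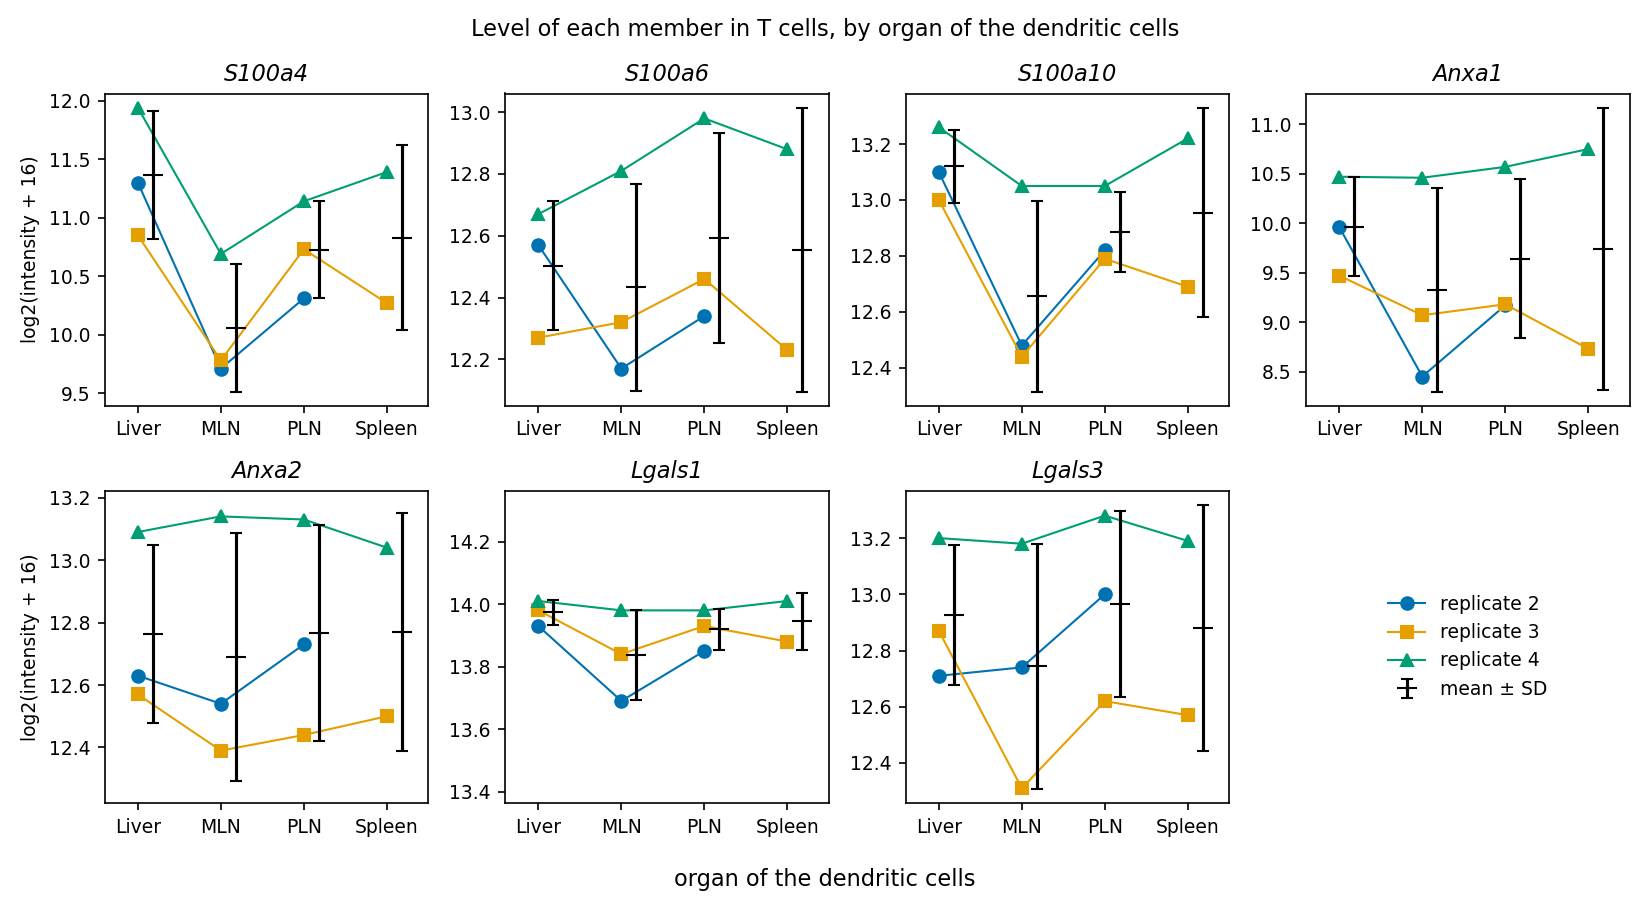
Level of each of the 7 measured genes, as log2(intensity + 16), in every array by organ of the dendritic cells, with lines joining arrays of 1 replicate number and bars giving the organ mean ± SD (n = 3, or 2 for spleen). The vertical axis differs between panels. S100a4 goes down from liver to MLN along every line, and the arrays numbered 4 top the panels of S100a6, Anxa1, Anxa2 and Lgals3. For Anxa2 and Lgals3 this does not hold with median centring, nor for Lgals3 with intensities as deposited.

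Anxa1, which encodes an annexin with an anti-inflammatory role through formyl peptide receptors, varied more between replicate numbers than between organs. Its levels (probe set 1448213_at) were 9.96, 9.47 and 10.47 in liver and 8.45, 9.07 and 10.46 in MLN cultures. They were 9.17, 9.18 and 10.57 in PLN and 8.73 and 10.75 in spleen cultures. The 4 arrays numbered 4 lay between 10.46 and 10.75, above the 7 others, which lay between 8.45 and 9.96. Liver exceeded MLN by 1.51 in number 2, by 0.40 in number 3 and by 0.02 in number 4, a mean of 0.64 ± 0.78 (SD, n = 3) that is smaller than its spread. With median centring the difference in number 4 was -0.04. The organ means, 9.97 ± 0.50 in liver, 9.74 ± 1.43 in spleen, 9.64 ± 0.81 in PLN and 9.33 ± 1.03 in MLN, differed by less than the SD of the MLN arrays.

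Anxa2, the membrane partner of S100a10, did not share the organ profile of S100a10 on its leading probe set. That probe set, 1419091_a_at, had levels of 12.63, 12.57 and 13.09 in liver, 12.54, 12.39 and 13.14 in MLN, 12.73, 12.44 and 13.13 in PLN and 12.50 and 13.04 in spleen cultures. Liver minus MLN was 0.09, 0.17 and -0.04 within the 3 numbers. All 4 organ means fell between 12.69 and 12.77. The arrays numbered 4 lay above the rest with quantile normalization and with intensities as deposited, and not with median centring.

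The 3 probe sets of Anxa2 disagreed. Probe set 1437692_x_at was dim, with intensities of 27.9 to 72.3 in liver, 94.9 to 329 in MLN, 106 to 246 in PLN and 155 to 167 in spleen cultures. On it every liver array was below every array of the other organs, and liver minus MLN was -1.64, -0.51 and -2.98 within numbers, a direction opposite to that of S100a10. The liver intensities all lie below 105, the lowest mean of a gene that entered the fit. The remaining probe set, 1437691_at, was near 0 throughout, with intensities of 1.41 to 4.50. The files do not say which part of the Anxa2 transcript each probe set reads, and the source of the disagreement was not tested.

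**Figure D2:**
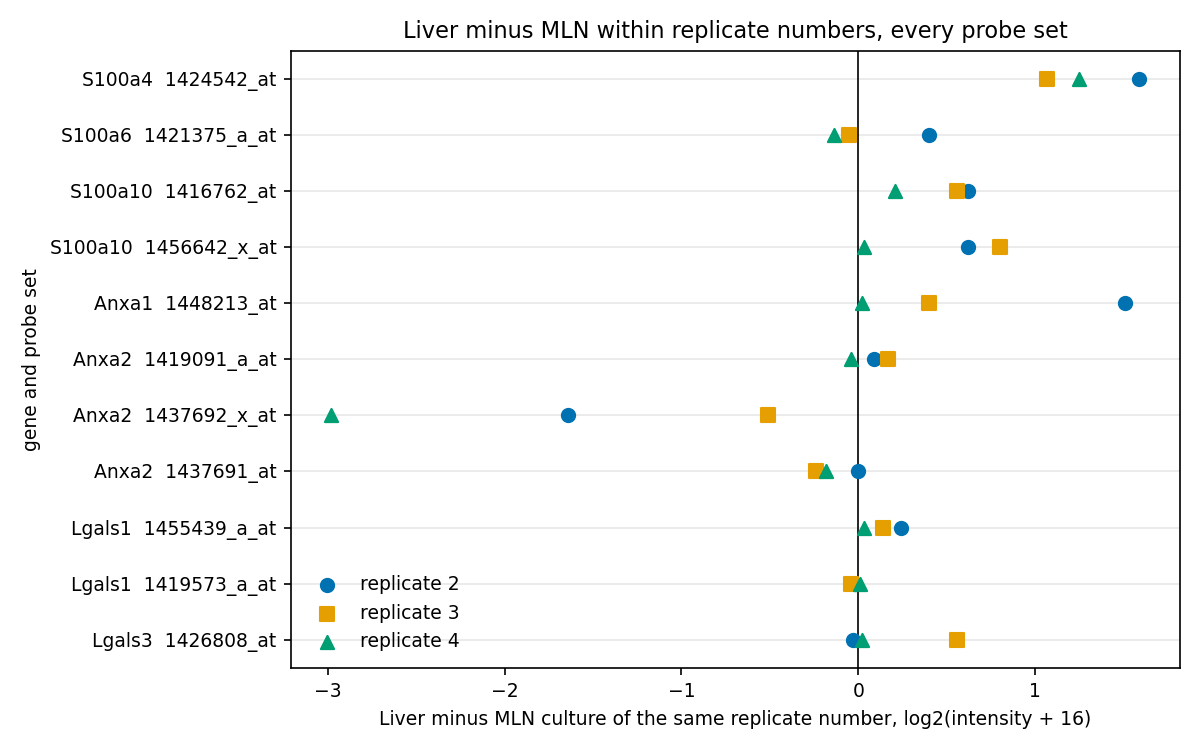
Difference in level, liver minus MLN culture of the same replicate number, in log2(intensity + 16), for each of the 11 probe sets of the 7 genes, with 1 point for each of the numbers 2, 3 and 4. All 3 points of S100a4 lie beyond 1, those of both S100a10 probe sets lie at or above 0.03, and those of the dim Anxa2 probe set 1437692_x_at lie between -2.98 and -0.51.

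Lgals1, which encodes galectin-1, was bright and nearly level. On probe set 1455439_a_at it had levels of 13.93, 13.98 and 14.01 in liver, 13.69, 13.84 and 13.98 in MLN, 13.85, 13.93 and 13.98 in PLN and 13.88 and 14.01 in spleen cultures. Liver exceeded MLN by 0.24, 0.14 and 0.03 within numbers. These differences turned with the scaling: with intensities as deposited they were -0.03, -0.05 and 0.05, and with median centring -0.10, -0.06 and -0.01. Such intensities, 13200 to 16500 after quantile normalization, stand among the brightest on the array, where that step sets values by rank. The second probe set, 1419573_a_at, gave -0.02, -0.04 and 0.01, and its levels ran only from 13.40 to 13.60. No direction between organs is therefore given for Lgals1.

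Lgals3 encodes galectin-3, a galectin with a collagen-like tail that forms lattices with branched sugars on the T cell surface. Its levels (probe set 1426808_at) were 12.71, 12.87 and 13.20 in liver, 12.74, 12.31 and 13.18 in MLN, 13, 12.62 and 13.28 in PLN and 12.57 and 13.19 in spleen cultures. All 4 organ ranges overlapped. Liver minus MLN was -0.03, 0.56 and 0.02, so only the cultures numbered 3 differed by more than 0.03. The order of organs differed between numbers, with PLN highest in numbers 2 and 4 and liver highest in number 3.

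The share of variation that went with the replicate number differed between the members. Over the 11 arrays, the number held 95.3% of the sum of squares of Anxa2, 80.1% of S100a6, 78.3% of Lgals3 and 77.5% of Anxa1. The organ, after the number, held 1.45%, 4.78%, 8.71% and 9.77% of theirs. For S100a4 the number held 40.7% and the organ 53.7%, and for S100a10 they held 50% and 41.4%. Lgals1 had 54.5% and 30.9%, of a total SD of only 0.10. The medians over all 7436 tested genes were 51.9% for the number and 18.3% for the organ. All 4 arrays numbered 4 lay above the 7 others for S100a6, Anxa1, Anxa2 and Lgals3, that is for 4 of 7 members, beside 9.87% of all tested genes. That count was 3 with intensities as deposited (S100a6, Anxa1 and Anxa2, beside 9.13%) and 2 with median centring (S100a6 and Anxa1, beside 8.42%). The labels do not say what the replicate number stands for.

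**Figure D3:**
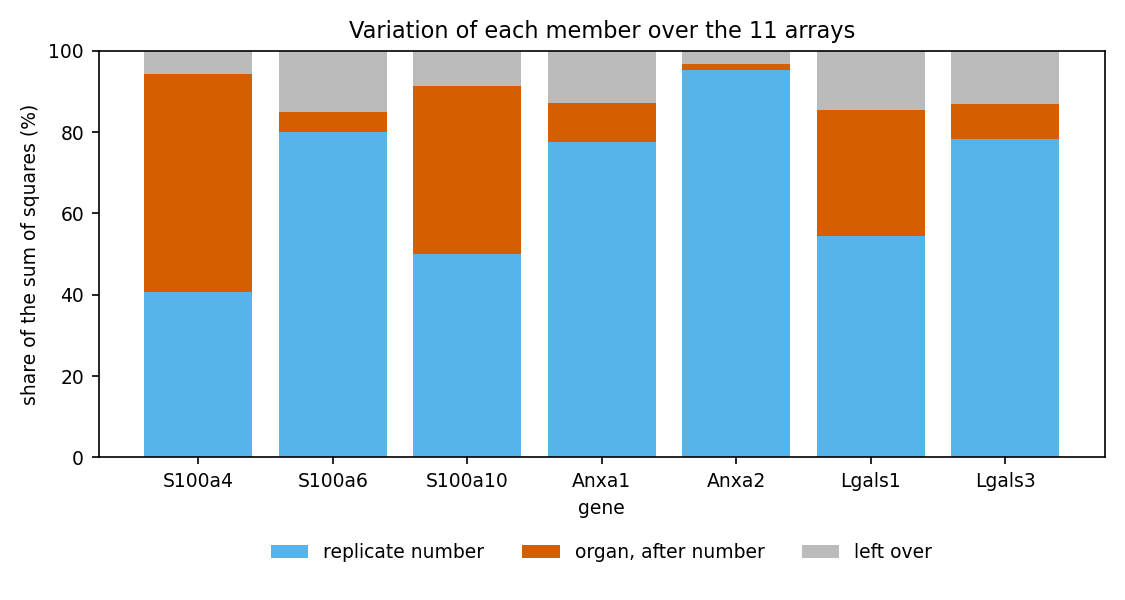
Share of the sum of squares over the 11 arrays, in percent, that went with the replicate number, with the organ after the number, and with neither, for each measured gene on the probe set of highest mean. The organ share is above 30% for S100a4 (53.7%), S100a10 (41.4%) and Lgals1 (30.9%) and below 10% for the other 4 genes.

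In a fit of all 11 arrays with limma, no member passed in any comparison between organs without the replicate number as a term, and 2 did with it. An organ was compared with the average of the other 3 organ means, with p-values adjusted over all 7436 tested genes at 0.05. Without a block, 0 of 7 members passed for liver, beside 0% of all tested genes, and 0 of 7 for MLN, beside 0.0941%; for PLN and spleen the count was 0 beside 0%. At an unadjusted p under 0.05 the same fit counted S100a4 for liver (beside 4.25% of all genes) and S100a4 and S100a10 for MLN (beside 3.70%), and no member for PLN (beside 1.21%) or spleen (beside 1.92%). In the fit over all organs at once 0 members passed, beside 0.0403%, and S100a4 alone had an unadjusted p under 0.05, beside 2.56%. With the replicate number as a block, S100a4 and S100a10 passed as higher in liver, beside 0.753% of all genes, and as lower in MLN, beside 0.619%. They also passed in the fit over all organs, beside 1.99%, and no member passed for PLN (beside 0.0134%) or spleen (beside 0%), nor had one there an unadjusted p under 0.05, beside 8.12% and 8.70% of all genes. Since the members were chosen on these organ levels, these counts describe them and support nothing.

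The S100a4 difference in the block fit was 0.87 (SE 0.11) for liver and -0.87 (SE 0.11) for MLN against the mean of the other organs. The S100a10 difference was 0.30 (SE 0.07) for liver and -0.32 (SE 0.07) for MLN. S100a4 passed for MLN when any 1 of the 11 arrays was left out, and for liver in 10 of 11 such fits, the exception being the fit without the liver array numbered 2. S100a10 passed in only 5 of 11 such fits for liver and 5 of 11 for MLN. S100a10 also did not pass in the block fit with intensities as deposited or with median centring, where S100a4 did. The same was seen with the replicate number as a random block, in which S100a4 alone passed in all 3 comparisons. Without the 4 arrays numbered 4, the block fit called S100a10 and not S100a4. Anxa1 had differences of 0.48 (SE 0.21) for liver and -0.38 (SE 0.21) for MLN, and the remaining members had absolute differences of at most 0.17 for liver and for MLN.

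On the probe set of highest mean, liver was highest and MLN lowest in each of the 3 numbers for S100a4 and S100a10. That was 2 of 7 members, beside 0.646% of all tested genes. With intensities as deposited (0.619% of all genes) and with median centring (0.403%) this held for S100a4 alone. The second probe set of S100a10, 1456642_x_at, did not keep it in number 4, where PLN was lowest. Liver exceeded MLN in each number for S100a4, S100a10, Anxa1 and Lgals1, 4 of 7 members beside 21.3% of all genes. With intensities as deposited Anxa2 took the place of Lgals1, and with median centring S100a4 and S100a10 remained. S100a4 was also the 1 member whose 3 liver arrays all lay above its 3 MLN arrays, beside 5.24% of all genes. In the block fit all 7 members lay at or above the mean of the other organs in liver, S100a6 at 0 after rounding, with a median difference of 0.09 beside 0.01 over all tested genes. All 7 lay below it in MLN, with a median of -0.17 beside -0.01; the MLN sign of Lgals1 turned to 0.12 with intensities as deposited and 0.18 with median centring.

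Members resembled each other to different degrees once each replicate number's mean was taken out. Across the 11 arrays, which share their scaling and their RNA between genes, Pearson's r of these deviations was 0.923 between S100a4 and S100a10, 0.958 between S100a10 and Lgals1 and 0.901 between Anxa1 and Lgals1. It was 0.801 between Anxa2 and Lgals3, 0.527 between S100a10 and its protein partner Anxa2, 0.367 between the close neighbours S100a4 and S100a6, and -0.0457 between S100a6 and Lgals3. All values of r with Lgals1 rest on quantile-normalized levels of probe set 1455439_a_at, with a total SD of 0.10. Its differences between liver and MLN turned with the scaling, so these values of r carry the same limit. The genes most like S100a4 among all tested genes were Rdm1 (r = 0.967), Ms4a4c (0.966) and Ctsw (0.961), which encodes cathepsin W of cytotoxic lymphocytes. Those most like S100a10 were Il18r1 (0.966), a chain of the interleukin-18 receptor, Acot9 (0.961) and Klrk1 (0.953), which encodes the activating receptor NKG2D. For Anxa1 they were Gnai3 (0.939), Parp4 (0.931) and Nsmaf (0.925), and for Lgals1 Appbp2os (0.928), Ctla2b (0.927) and Itgal (0.917), the alpha chain of the integrin LFA-1. For S100a6 they were Plin3 (0.904), Ciapin1 (0.892) and Loxl3 (0.887), for Anxa2 Eef2 (0.887), Polg (0.879) and Rnf103 (0.871), and for Lgals3 Zfp622 (0.886), Mre11a (0.871) and Pim2 (0.870). They are the highest of 7436 values for each member and carry no p.

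Beyond the members, 27 of 32 other named genes of the 3 families were measured and 14 were bright enough to be tested. Anxa6, an annexin of the plasma and endosomal membranes, rose in liver cultures in limma's block fit. Its levels were 11.55, 11.47 and 11.91 in liver, 11.14, 11.12 and 11.58 in MLN, 11.37, 11.41 and 11.59 in PLN and 11.29 and 11.63 in spleen cultures, so the ranges overlapped between numbers while liver was the highest within each number. Its difference in liver was 0.26 (SE 0.06, limma adjusted p = 0.0391 with the block and 1 without it) and in MLN -0.22 (SE 0.06, limma adjusted p = 0.0901 with the block). It passed for liver in only 2 of 11 fits that left out 1 array, and with neither other scaling. That 1 of 14 stood beside 0.753% of all tested genes called higher in liver, and 0 of 14 passed for MLN, beside 1.33% in either direction. At an unadjusted p under 0.05, limma's block fit counted 4 of 14 for MLN, beside 13.5% of all genes.

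The rest of the families showed no common direction: in the block fit 7 of the 14 lay above and 7 below the mean of the other organs, both in liver and in MLN, with a median of 0.01 in each. Anxa4 had an MLN difference of -0.39 (SE 0.10, limma adjusted p = 0.0952 with the block). S100a1, a calcium sensor best known from muscle, had one of 0.40 (SE 0.11, limma adjusted p = 0.124 with the block), opposite in sign to the S100 members. S100a8 and S100a9, the S100 genes of neutrophils and monocytes, did not exceed intensities of 96.7 and 91.9 and were not tested.

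Among 13 tested binding partners and receptors of the members, of 19 named and 16 measured, Ahnak and Fpr2 passed limma's block F-test over the 4 organs (adjusted p = 0.0488 and 0.0473), beside 1.99% of all genes, and neither passed without the block (adjusted p = 1 and 0.52). Ahnak also changed in the comparisons of single organs. It encodes a giant scaffold protein that the complex of S100A10 and annexin A2 anchors at the membrane. Ahnak had levels of 10.96, 10.61 and 11.49 in liver, 10.53, 9.89 and 10.97 in MLN, 10.66, 10.14 and 11.40 in PLN and 10.07 and 11.48 in spleen cultures. Liver exceeded MLN in every number, by 0.43, 0.72 and 0.52. In limma's block fit Ahnak rose in liver by 0.37 (SE 0.08, adjusted p = 0.0411) and fell in MLN by 0.38 (SE 0.08, adjusted p = 0.0458), while without the block the adjusted p was 1 for both. That was 1 of 13 in each direction, beside 0.753% of all genes higher in liver and 0.619% lower in MLN. These calls held in 1 of 11 fits for liver and 3 of 11 for MLN when 1 array was left out, and of the 2 the liver call held with both other scalings, the MLN call not with median centring (limma adjusted p = 0.131). Fpr2, a formyl peptide receptor bound by annexin A1, had an MLN difference of -0.63 (SE 0.16, limma adjusted p = 0.0868 with the block). Its organ means were 8.04 ± 0.14 in spleen, 7.74 ± 0.19 in liver, 7.08 ± 0.36 in PLN and 6.97 ± 0.2 in MLN cultures (SD, n = 2, 3, 3 and 3). PLN was thus about as low as MLN and spleen was highest. The gene was dim, with intensities of 87.2 to 266. The urokinase receptor Plaur had 0.50 (SE 0.20) in liver and tissue plasminogen activator Plat -0.22 (SE 0.16), and neither passed. In the block fit 10 of the 13 lay above the other organs in liver, with a median of 0.05, where 53.1% of all tested genes did. In MLN 4 of the 13 lay above and 9 below, with a median of -0.08, where 48.4% of all genes lay above.

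Of 17 tested genes for galectin counter-receptors and for enzymes that build or cap their sugars, of 20 named, Cd2 fell in MLN cultures. Cd2, an adhesion receptor of T cells, had levels of 10.72, 10.68 and 10.62 in MLN, below all of 11.10, 11.45 and 11.11 in liver, 11.31, 11.35 and 10.93 in PLN and 11.33 and 10.99 in spleen cultures. Its MLN difference was -0.52 (SE 0.08, limma adjusted p = 0.00452 with the block and 0.481 without it), 1 of 17 beside 0.619% of all genes. That call held in 10 of 11 fits that left out 1 array and was lost without the MLN array numbered 3 (limma adjusted p = 0.0505) and with median centring (0.0658). The branching enzyme Gcnt1 had an MLN difference of -0.56 (SE 0.13), the sialyltransferases St3gal6 and St6gal1 had -0.57 (SE 0.14) and -0.33 (SE 0.11), and none of these passed. The list's median was 0.07 in liver and -0.06 in MLN, with 12 of 17 above in liver (53.1% of all genes) and 6 of 17 above in MLN (48.4%).

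Naive T cell and effector genes were set beside the members because these families distinguish these states. Of 11 tested naive and quiescence genes, of 14 named, Il7r, the interleukin-7 receptor chain of resting T cells, fell in MLN cultures by 0.44 (SE 0.06, limma adjusted p = 0.00389 with the block and 1 without it), 1 of 11 beside 0.619% of all genes. Liver exceeded MLN in Il7r by 0.46, 0.44 and 0.50 within numbers, and the call was lost without the MLN array numbered 4 (limma adjusted p = 0.0565) and with median centring (0.0856). S1pr1, Bach2 and Foxp1 had MLN differences of -0.26 (SE 0.09), -0.18 (SE 0.09) and -0.09 (SE 0.08) and did not pass. The median of these 11 genes was -0.05 in liver and -0.03 in MLN.

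Of 19 tested effector genes, of 20 named, 3 rose in liver cultures in limma's block fit, beside 0.753% of all genes. Cxcr3, a chemokine receptor of type 1 effector cells, rose by 0.78 (SE 0.14, limma adjusted p = 0.0148). Cxcr6, a chemokine receptor of T cells that stay in the liver, rose by 0.56 (SE 0.09, limma adjusted p = 0.0123), and the chemokine gene Ccl5 by 0.62 (SE 0.14, limma adjusted p = 0.0467). Without the block none of the 3 passed. When 1 array was left out, Cxcr6 passed in 10 of 11 fits, Cxcr3 in 8 and Ccl5 in 4, and Ccl5 did not pass with median centring. Ccl5 was not highest in liver within every number. Spleen and liver had 12.13 and 12.05 in number 3, and 11.04 and 11.92 in number 4. Its means were 11.71 ± 0.48 in liver and 11.58 ± 0.77 in spleen cultures (SD, n = 3 and 2). Perforin, Prf1, had a liver difference of 0.16 (SE 0.09) and did not pass. The effector list as a whole had 11 genes above and 8 below in liver and in MLN alike, with medians of 0.03 and 0.05.

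**Figure D4:**
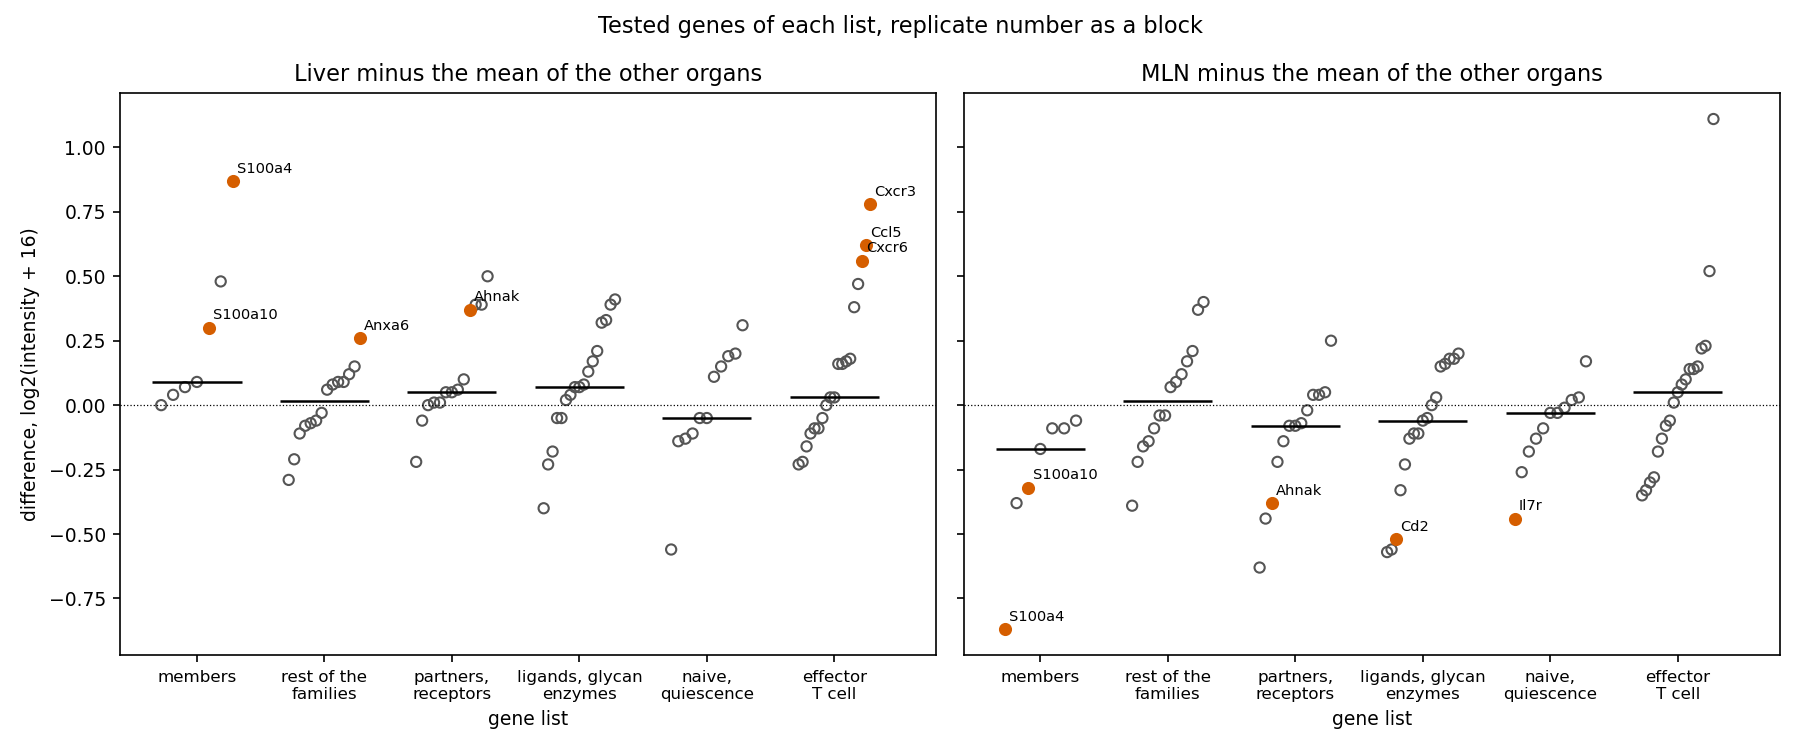
Difference of each tested gene of the 6 lists, in log2(intensity + 16), for liver (left) and MLN (right) against the mean of the other organs in the fit with the replicate number as a block. Filled points passed at an adjusted p of 0.05, bars are list medians, and the members' medians of 0.09 and -0.17 stand beside family medians of 0.01.

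The arrays could also carry RNA of cells other than T cells, and in bulk RNA fewer cells of a type and less RNA per cell cannot be told apart. T cell markers were abundant, with 10 of 11 named genes measured and tested and summed intensities of 26100 to 34900 in liver, 24800 to 31900 in MLN, 25600 to 28400 in PLN and 26400 to 33600 in spleen cultures. Between liver and MLN they went the way of S100a4 and S100a10: the sum was higher in liver within every number. It was 31100 in liver and 24900 in MLN in number 2, 26100 and 24800 in number 3, and 34900 and 31900 in number 4. In the block fit all 10 tested T cell markers lay above the other organs in liver, with a median difference of 0.16, and 9 of 10 below in MLN, with a median of -0.10, where Cd2 was the 1 called. In the same fit the markers' median was -0.14 in PLN and 0.13 in spleen. Of the 10 markers, 9 lay below the other organs in PLN and 8 above in spleen. The members' medians there were 0.04 and -0.03 in the block fit. The spleen direction of the members turned with the fit. Without the block all 7 members lay above the other organs in spleen, with a median of 0.04 beside 0.14 for the markers. In PLN the members' median was then 0 and that of the markers -0.16. The part of the T cell content in the members' levels was not tested.

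Macrophage, monocyte and Kupffer cell markers as a sum were also higher in liver than in MLN within every number, as were S100a4 and S100a10. Of 17 such genes 16 were measured and 6 tested, and their summed intensity was 4430 to 4760 in liver, 3320 to 3780 in MLN, 3420 to 4310 in PLN and 4630 to 5010 in spleen cultures. Liver arrays thus lay above all MLN arrays, as for S100a4. The spleen arrays had 4630 beside 4720 in liver in number 3, and 5010 beside 4430 in number 4. The median difference of the tested markers in the block fit was 0.32 in spleen and 0.26 in liver. Spleen lay below liver by 0.58 and 0.54 in S100a4 and by 0.30 and 0.05 in S100a10 within numbers 3 and 4. Ctss and Ccr2, which dendritic cells and activated T cells also express, made up most of the sum, with 2940 and 749 of 4760 in the liver array numbered 2 and 1820 and 1260 of 3780 in the MLN array numbered 4. The single markers differed: liver minus MLN within numbers 2, 3 and 4 was 0.86, 0.95 and 2.29 for Cd14 and 0.94, 0.78 and 1.30 for Lyz2, but -0.26, 0.36 and 0.51 for Csf1r and -0.37, 0.26 and -0.16 for Cd68. In limma's block fit Lyz2 rose in liver by 0.74 (SE 0.17, adjusted p = 0.0424) and Cd14 fell in MLN by 1.15 (SE 0.23, adjusted p = 0.0323), calls that held in 2 and 5 of 11 fits with 1 array left out. Without the block limma's adjusted p was 1 for Lyz2 and 0.538 for Cd14, and Lyz2 also did not pass in the block fit with intensities as deposited (adjusted p = 0.0615). Of the 10 markers below the filter, Vsig4 of Kupffer cells was higher in liver than in MLN by 0.50, 0.47 and 1.18 at intensities of up to 76.7, and Adgre1 by 0.03, 0.27 and 0.11 at up to 138. Chil3 had 1.32, 1.15 and -0.31 at up to 43.2, and Fcgr1 -0.37, -0.70 and -1.16 at up to 45.9. C1qb, Mrc1 and Clec4f reached 72.2, 68.6 and 58.4 with differences of both signs, and C1qa, Cd163 and Marco did not exceed 10.3, 13.1 and 14.1. S100 genes, annexins and galectins are also abundant in macrophages, and the part of these cells in the members' levels was not tested.

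Dendritic cell markers, of which 12 of 14 were measured and 9 tested, separated by replicate number more than by organ, apart from Batf3, a transcription factor of dendritic cells and effector T cells, which fell in liver by 0.68 (SE 0.15, limma adjusted p = 0.0387 with the block, 1 without it and 0.0606 in the block F-test). That call held in 4 of 11 fits with 1 array left out. Dendritic cell marker sums were 7660 to 8720 in number 2, 10200 to 11200 in number 3 and 6700 to 8330 in number 4. The arrays in which S100a6, Anxa1, Anxa2 and Lgals3 were highest thus had sums in the lower part of the range. Within each number the liver array had the lowest sum, at 7660, 10200 and 6700, beside 8680, 10900 and 7990 in MLN. The single markers differed: in the block fit 4 lay above the other organs in liver and 5 below, with a median of -0.02. In number 2 Batf3 had intensities of 727 in liver and 1630 in MLN, while Cd74 had 1890 and 1370. Ccr7, which is also on the naive T cell list, was part of the sum. T cell marker sums were 28400 to 34900 in number 4 and 24800 to 31100 in the others. NK cell marker sums, of which 3 of 6 genes were measured and Eomes alone was tested, were 560 to 708 in number 2, 706 to 876 in number 3 and 917 to 1250 in number 4, so the 4 arrays numbered 4 lay above the 7 others, as in those 4 members. Eomes, which effector T cells also express, made up most of that sum. The part of these cell types in the differences between numbers and between organs was not tested. None of the 7 measured neutrophil markers reached the filter, with sums of 172 to 473. Their sum was higher in liver than in MLN within each number, at 358 and 226, 370 and 295, and 278 and 172. Spleen lay above liver in both of its numbers, with 473 in number 3 and 346 in number 4. PLN had 185, 355 and 244. Between liver and MLN, S100a9 was higher in liver by 1.13, 1.95 and 1.25 and S100a8 by 0.26, 0.63 and 1.26. Mpo and Ltf were also higher in each number, and Elane, Csf3r and Cxcr2 had differences of both signs. The part of neutrophils in the members' levels was not tested. B cell and plasma cell sums ran from 10400 to 12500 (5 of 7 named genes tested) and hepatocyte, endothelial and stromal sums from 664 to 999 (3 of 12).

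**Figure D5:**
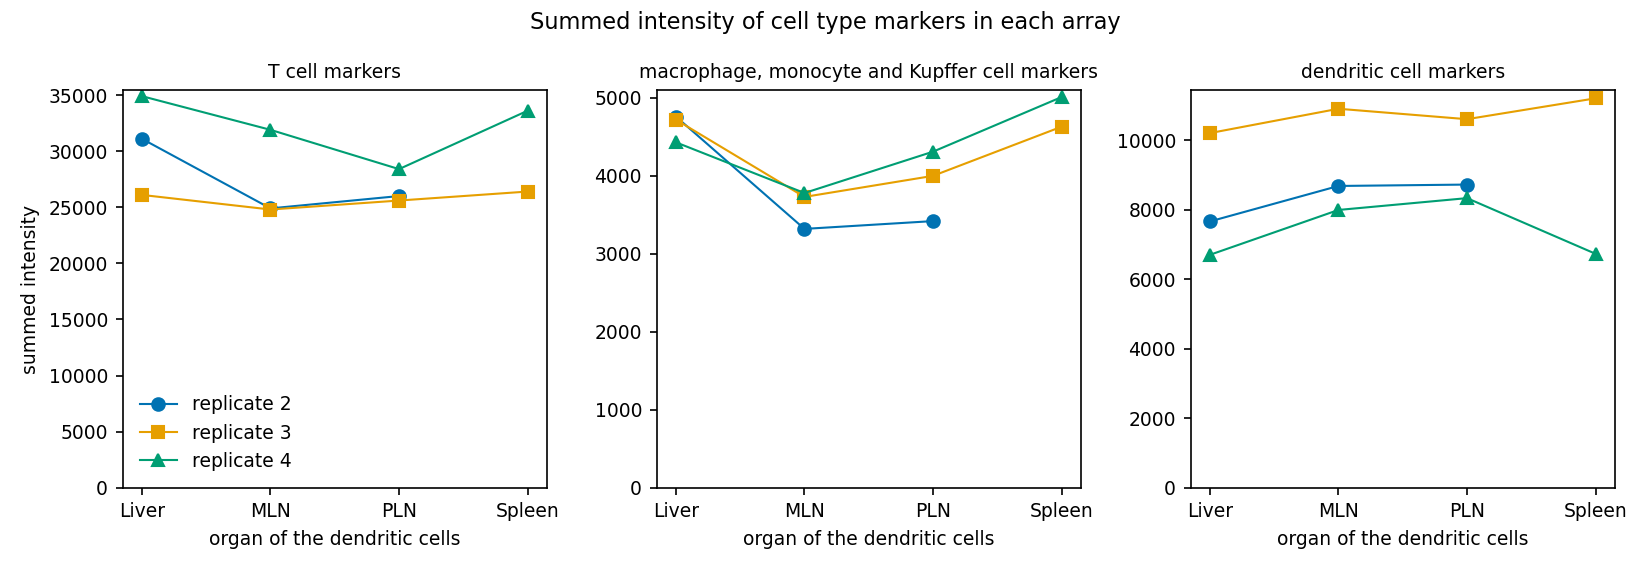
Summed intensity of the measured markers of T cells, of macrophages, monocytes and Kupffer cells, and of dendritic cells in each array, by organ, with lines joining arrays of 1 replicate number and the vertical axis starting at 0. Macrophage sums are lower in the MLN arrays (3320 to 3780) than in the liver arrays (4430 to 4760), and dendritic cell sums are highest in the 4 arrays numbered 3.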

How the data were processed

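The deposited table holds 1 linear intensity per probe set and array, which the authors had scaled and not logged: per the deposited values, the mean after trimming 2% at each end was 500.2 on every array. What software read the arrays and how probes were summarised is not given in the sources used here. Median deposited intensities ran from 144.3 to 170.4, arrays correlated at 0.967 to 0.985, no arrays were identical, and the number of arrays limits the precision.

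Intensities were transformed as log2(intensity + 16) and quantile normalized over all probe sets, so fold changes are on that scale and understate those of dim genes. Of the probe sets, 20393 carried a single symbol, 691 had several and 1606 had none, and the latter 2 kinds were not named. The probe set of highest mean stood for a gene, and the upper 60% of genes by mean (7436) entered limma 3.58.1 under R 4.3.3 (lmFit, eBayes with trend, Benjamini-Hochberg at 0.05), checked on simulated data. The fit without a block had 7 residual degrees of freedom, and that with the replicate number as a block had 5. The numbers pair the arrays, as read from the data: after organ means were removed, the 15 same-number pairs correlated at 0.412 to 0.731. The 30 pairs with different numbers and organs correlated at -0.708 to 0.0843, and all 11 arrays correlated best with their own number. Removing organ means makes deviations cancel within each organ. That in part sets the low values between numbers, so they are no separate evidence of the pairing. The p-values measure the spread between arrays, which may be technical.

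The members and the gene lists were chosen with earlier results of these data known. Named genes are all members, up to 4 of each other list by blocked result (all that passed, filled by smallest F-test p), and the 3 genes most like each member. S100a8, S100a9, S100a5, the cell type markers named and the genes' neighbours were chosen after their values were seen. Alternatives changed the pseudocount, filter, scaling, probe set rule, block and arrays. Motifs were searched with Python 3.11.15 in RefSeq promoters, which held 6 of the 8 members.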

Additional observations from a re-analysis of the deposited data

How the results depend on the processing

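All counts of members and of other family genes past the threshold were 0 in the fit without a block, and stayed 0 under every alternative without the replicate number (pseudocount, filter, scaling, probe set rule and each array left out). The replicate block moved them to 2 members over all organs, 2 for liver and 2 for MLN, and to 1 other family gene for liver. The random block gave 1 member in each of those 3 comparisons, S100a4. With the block and 1 array left out, the members called ranged from 1 to 2 over all organs, from 0 to 2 for liver and from 1 to 2 for MLN, and the other family genes from 0 to 1 for liver and for MLN. For liver it was 0 without the liver array numbered 2. Added after seeing the data, the block fit gave 1 member in each of the 3 comparisons with intensities as deposited and with median centring (S100a4) and without the 4 arrays numbered 4 (S100a10), and in these fits no other family gene was called with either scaling.

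Of 980 member differences recomputed and set against the fit without a block, 963 moved by less than the spread between arrays and 17 by more. That fit called no member, so no called value could turn, and nothing about stability follows from that. The larger moves included Lgals1 for MLN (-0.11, against 0.12 as deposited and 0.18 with median centring), Anxa2 for liver when its probe sets were averaged (-0.53 in place of 0.02), and the spleen differences without either spleen array, such as Anxa1 at 1.11 without number 3 and -0.91 without number 4. Spleen rests on 2 arrays, and probe sets at low intensity, such as 2 of the 3 of Anxa2, bear no comparison of fine differences.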
